A study of Danio rerio with 10 samples.

Results

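The genes described here encode the subunits and assembly factors of the mitochondrial respiratory chain and of ATP synthase in zebrafish. They were taken from the deposited gene table by symbol alone: all names that begin with nduf, sdha to sdhd, uqcr, uqcc, cyc1, cycs, cox4 to cox8, cox10 to cox19 or atp5. That rule found 104 of 14781 genes, of which 85 carry the current RefSeq symbol and 19 are listed there as synonyms. Subunits encoded in mitochondrial DNA have other names and were not included. The cells came from the pituitary (hypophysis) of 12-month-old male zebrafish of the TL strain, and no genetic alteration is given for either group. Every fish had received 10 µL of 4.6 mM β-Ala-Lys-Nε-AMCA, a dipeptide coupled to a blue fluorescent dye, 3 h before dissection. Pituitaries were pooled in 5 groups of 7, dissociated and sorted in 2 experiments into cells that had taken up the dye (AMCA-positive, labelled pituicytes, the astroglia of the neurohypophysis) and cells that had not (AMCA-negative, labelled non-pituicytes). Each group has 5 libraries, 2 from plate 1 and 3 from plate 2. Both groups are pools, the negative group also carries the injected dye, and "pituicyte" is defined by dye uptake. How many cells went into a library is not stated in these sources.

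Complex I (NADH dehydrogenase) and complex II (succinate dehydrogenase) pass electrons to ubiquinone. Complex III passes them on to cytochrome c, and complex IV (cytochrome c oxidase) hands them to oxygen. Complexes I, III and IV pump protons across the inner mitochondrial membrane, and ATP synthase uses the gradient to make ATP. Around the catalytic core of complex IV sit small nuclear-encoded subunits, several of which exist as paralogs that replace each other in different tissues. In mammals COX6A2, COX7A1 and COX8B are the isoforms of heart and skeletal muscle, and COX4I2 is best known from lung and from cells short of oxygen.

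Library totals ran from 4250948 to 6068781 counts. The positive libraries detected 11586 ± 188 genes and the negative ones 8326 ± 757 (mean ± SD, n = 5). Of 9094 genes tested, 0.691% on average had no count in a positive library and 22.3% had none in a negative library. The 14 astroglia and pituicyte markers together took 0.643 to 1.66% of counts in the positive libraries and 0.0245 to 0.0714% in the negative ones, with 11 of 13 tested higher in positive cells and slc1a3a and tgfb3 without a count in any negative library. The sorted groups also differed in other cell types. The 11 red cell markers listed held 0.0289 to 0.0880% of positive and 12.5 to 23.8% of negative counts, all 11 were lower in positive cells, and none was at 0 in a whole group. Leukocyte markers (16 listed) held 1.37 to 3.90% of positive and 0.0571 to 0.223% of negative counts, with 10 of 13 tested higher and none lower. The lymphocyte genes ccr7 and lck on that list were not tested, and read 0.316 ± 0.626 and 0.611 ± 1.28 CPM in positive and 62.1 ± 46.4 and 56.6 ± 74.6 CPM in negative libraries. For endocrine markers the ranges were 1.03 to 3.61% and 0.210 to 4.58%, with 2 of 11 higher and pcsk1 without a count in negative libraries. Of the endothelial and the mural and fibroblast markers, 4 of 5 and 7 of 8 tested were higher in positive cells, at shares of at most 0.00888% and 0.129%, and sox17 and pdgfrb had no count in any library. Several of these markers passed the filter on low counts through a single group. Examples are gfap (197 counts in positive and 1 in negative libraries), sox3 (4390 and 1) and epor (4 and 3034). Tests of such markers could only come out in that group's direction, so these counts of calls are no support for the cell types. Among all genes 13.1% were called as higher and 7.06% as lower. All comparisons below are between these sorted mixtures. In such bulk libraries fewer cells of a type and less RNA per cell cannot be told apart, and the part of these marker differences in the results was not tested.

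Most respiratory chain genes were measured at levels that the test could not separate between the sorted groups, and the genes that did differ fell into a few classes. In complex IV, cox5b2, cox7a1, cox6a2, cox8b and cox4i2 were 2.11- to 14.9-fold higher in AMCA-negative cells, while cox6a1 and cox6c were 3.59- and 2.1-fold higher in AMCA-positive cells. In complex I, 7 of 27 tested accessory subunits (25.9%) were 1.88- to 3.93-fold higher in AMCA-negative cells. In ATP synthase, the catalytic β subunit gene atp5b and the c-ring genes atp5g1 and atp5g3a were 2.18- to 2.62-fold higher in AMCA-positive cells. These 3 are 18.75% of its 16 tested genes, near the 13.1% of all genes called as higher. The complex III assembly factor gene uqcc2, the 1 called of 3 tested in its class, was 2.54-fold higher in AMCA-negative cells.

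Of the 104 genes, 99 passed the filter on low counts. Of these, 5 were higher in AMCA-positive cells and 13 were lower (quasi-likelihood test in edgeR, adjusted for plate, Benjamini-Hochberg adjusted p under 0.05 over all 9094 genes tested), which is 5.05% and 13.1% of those tested. Among all genes 20.1% were called, 13.1% as higher and 7.06% as lower, so the higher share of these genes lies under the background and the lower share over it. The p-values rest on the spread between these libraries, with each gene's estimate drawn toward the trend over all genes tested. Called, here and below, means past this edgeR test unless another tool is named. The DESeq2 Wald test called 15 of 100 of these genes as higher and 14 as lower, against 2927 and 920 of all 12670 genes it tested. Those it called as higher include ndufv1, cycsb, cox7a3 and cox8a, which edgeR did not call. The median log2 fold change (positive over negative) was -0.01 over the 99 genes, with a range from -3.90 to 2.85, and 0.51 over all genes tested. On average 2.63% of the 99 genes had no count in a negative library, against 22.3% of all genes tested. The 2 sets thus differ in how well the negative libraries sampled them. All fold changes are relative to the TMM scaling, under which the libraries' scaling factors were 1.14 to 1.25 in positive and 0.674 to 0.904 in negative cells. Scaling by DESeq2 size factors raised the median of all genes by 0.15. It gave 8 genes higher and 9 lower in place of 5 and 13, against 1298 and 524 of all 9094 genes. Upper-quartile scaling gave 7 and 13, against 1244 and 572 of all genes. Under DESeq2 size factors uqcc2, cox4i2, ndufa1 and ndufa6 lost their calls (adjusted p = 0.0610, 0.0667, 0.0509 and 0.0652). Testing only genes at 10 CPM (counts per 1000000 counts, TMM-scaled where levels are given) in 5 libraries gave 3 and 18, against 676 and 742 of all 6505 genes. With that filter the median log2 fold change was -0.19 over the 99 genes and 0.13 over all genes tested. With the positive and negative libraries of neighbouring wells taken as pairs, a pairing that the labels do not state, 2 genes were higher and 6 lower. Over all 9094 genes that pairing gave 1253 higher and 440 lower. There cox8b, cox4i2, cox6c, atp5b, atp5g1, uqcc2, ndufa1, ndufa5, ndufa6 and ndufb5 lost their calls (adjusted p = 0.0502 to 0.107). With limma-voom cox6c, atp5b and atp5g1 lost theirs, which left 2 of the 5 higher calls. That tool called 6 of the 99 genes as higher and 13 as lower, against 2448 and 647 of all 9094 genes. Each of the 18 called genes had the same sign under all 23 alternative settings. These settings reuse the libraries that gave the calls, so the shared sign is no separate support. In 8 of the 99 genes every positive library lay above every negative one, against 18.4% of all genes, and in 5 every positive library lay below, against 6.49%. The authors' deposited table gives an adjusted p for 100 of the genes and calls 11 higher and 10 lower, where its background is 22.3% and 8.31% of 11270 genes. It shares 4 of the 5 higher calls made here and 9 of the 13 lower ones.

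**Figure D1:**
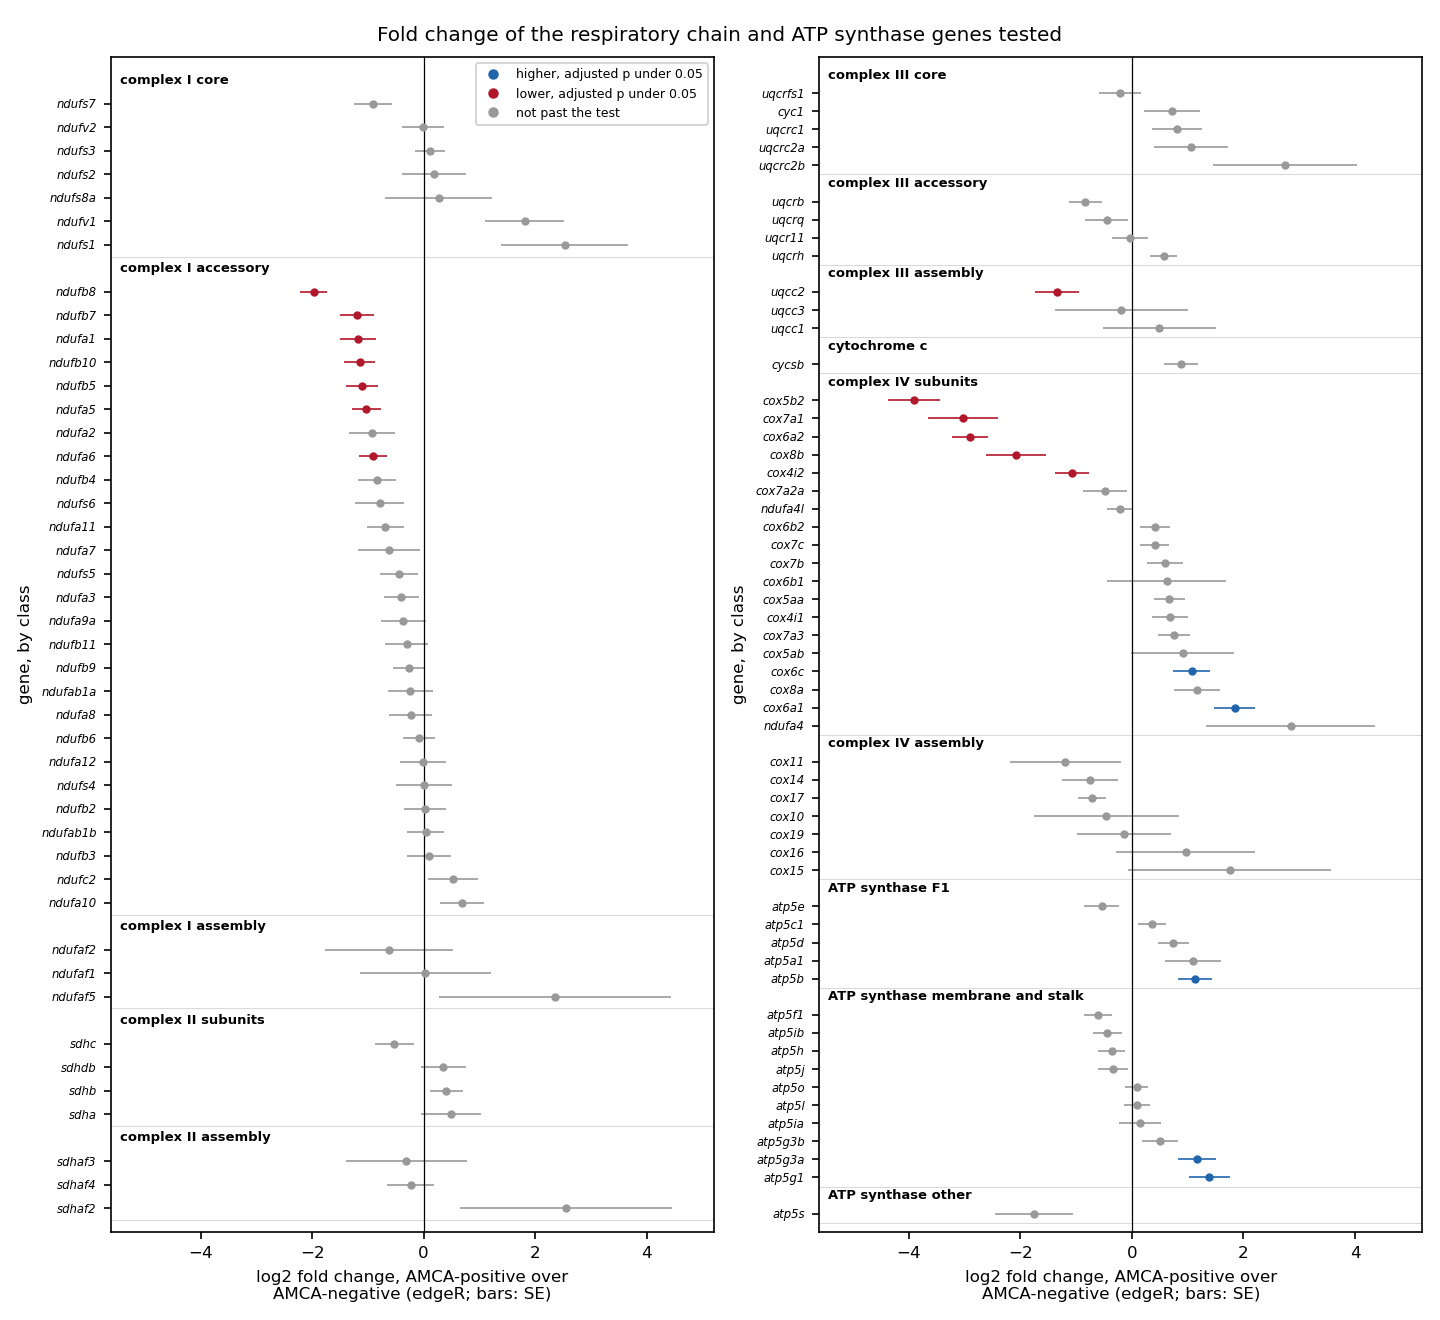
Log2 fold change of each of the 99 tested genes (horizontal axis, AMCA-positive over AMCA-negative, edgeR, bars are SE), 1 row per gene and grouped by complex. The 5 higher genes lie in complex IV and ATP synthase, and the 13 lower genes in complex I accessory subunits, complex III assembly and complex IV subunits.

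The genes together took 1.89 ± 0.575% of positive and 1.34 ± 0.281% of negative counts (SD, n = 5). On the TMM-scaled CPM scale their sums were 14971, 25518, 12216, 14315 and 13080.4 CPM in positive replicates 1 to 5 and 17683, 18989, 14576, 16433 and 12464 CPM in negative replicates 1 to 5. Positive replicate 2 stood above every other library, and the 2 groups overlapped, with means of 16020.1 ± 5416 and 16029 ± 2573 CPM. This library held the highest positive value in 83 of the 99 tested genes. Without it the test called 4 genes higher and 11 lower, against 1142 and 514 of all 9457 genes. The summed level of complex I subunits and assembly factors was 3518, 5386, 2691, 3135 and 3203 CPM in positive replicates 1 to 5 and 5994, 6502, 4952, 5377 and 3949 CPM in negative ones. Outside positive replicate 2, all positive values of complex I lay under all negative ones on this scale. As shares of raw counts they overlapped (0.424 ± 0.112% and 0.447 ± 0.100%, mean ± SD). For ATP synthase the sums were 4370.1, 7175, 4024, 4528 and 3832 CPM and 4019, 4587, 3221, 4139 and 3595 CPM in the same order. These overlapped, but the raw shares of ATP synthase did not, at 0.459 to 0.810% in positive and 0.217 to 0.400% in negative libraries. Scaled sums also overlapped for complex II (746 ± 199.5 and 668 ± 113 CPM, mean ± SD), for complex III (1654 ± 513 and 1699 ± 367 CPM) and for complex IV (4525 ± 2110.0 and 3981 ± 609.9 CPM).

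**Figure D2:**
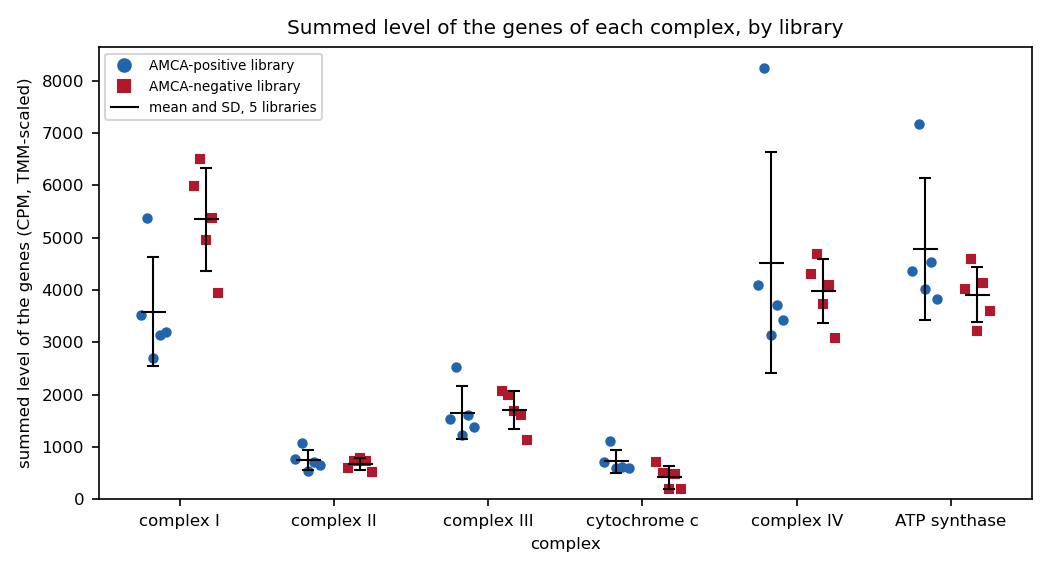
Summed level of the genes of each complex (vertical axis, TMM-scaled CPM) in each of the 10 libraries, 5 AMCA-positive and 5 AMCA-negative. Positive replicate 2 is the highest positive library in every complex, and the remaining positive libraries lie under all negative ones for complex I on this scale.

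Complex I takes electrons from NADH. Of its 7 tested core subunits, which carry the flavin and the iron-sulfur clusters, none was called by edgeR. An unadjusted p under 0.05 was found for 2 of the 7, against 2773 of all 9094 genes tested. The DESeq2 Wald test called 2 of the 7 and limma-voom 1 as higher. The median log2 fold change of the core subunits was 0.18. Of 27 tested accessory subunits, which surround that core, 7 (25.9%) were lower in AMCA-positive cells and none was higher, with a median of -0.41. Among all genes 7.06% were lower and 13.1% higher. The summed level of the core subunits was 719.7 ± 107 CPM in positive and 725 ± 206 CPM in negative libraries, and that of the accessory subunits 2766 ± 936 and 4538 ± 917 CPM (SD, n = 5). As shares of raw counts, with no scaling, the accessory subunits took 0.327 ± 0.101% and 0.379 ± 0.0891%, a difference smaller than the spread. Whether core and accessory genes differed from each other was not tested.

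Of the 7 called genes, 4 are ndufb genes, of which 10 were tested, and 3 are ndufa genes, of which 13 were tested. The ndufb subunits sit in the distal part of the membrane arm. The level of ndufb8 was 216, 365, 197, 239 and 205 CPM in positive replicates 1 to 5 and 1097, 1033, 1086, 941 and 609 CPM in negative replicates 1 to 5. No positive value reached the lowest negative one, and positive replicate 2 was the highest of its group. The difference was 3.93-fold (log2 fold change -1.97 ± 0.23, adjusted p = 2.18e-04, edgeR), with log2 fold changes of -2.08 on plate 1 and -2.04 on plate 2. The ± after a log2 fold change is its SE, here and below. For ndufb10 the positive libraries read 136, 194, 99.9, 123 and 112 CPM and the negative ones 402, 339, 341, 243 and 149 CPM. Negative replicate 5 lay within the positive range (2.21-fold higher in negative cells, log2 fold change -1.14 ± 0.28, adjusted p = 0.0130). These were the only accessory subunits of complex I called in each of the 10 fits that left out 1 library.

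The remaining ndufb calls were ndufb7 (2.29-fold higher in negative cells, log2 fold change -1.20 ± 0.31, adjusted p = 0.0174) and ndufb5 (2.15-fold, log2 fold change -1.10 ± 0.29, adjusted p = 0.0180). The level of ndufb7 was 116, 155, 90.7, 101 and 119 CPM in positive and 375, 258, 131, 348 and 226 CPM in negative libraries. Those of ndufb5 were 127, 176, 62.9, 82.2 and 93.1 CPM and 245, 261, 258, 199 and 148 CPM. Both pairs of groups overlapped through 1 or more libraries. The call of ndufb7 was lost without positive replicate 1 (adjusted p = 0.0512), and that of ndufb5 without positive replicate 3 (0.0563) or 4 (0.0561). Among the ndufa genes, ndufa5, a subunit of the arm that faces the matrix, read 125, 192, 77.9, 95.7 and 99.5 CPM in positive and 350.0, 258, 199, 226 and 152 CPM in negative libraries. Its groups overlapped, since positive replicate 2 lay above negative replicate 5 (2.04-fold, log2 fold change -1.03 ± 0.26, adjusted p = 0.0164). It lost its call without positive replicate 1 (adjusted p = 0.0512). Also lower in AMCA-positive cells were ndufa1, a small membrane-arm subunit (2.27-fold higher in negative cells, log2 fold change -1.18 ± 0.32, adjusted p = 0.0241), and ndufa6, which binds the mitochondrial acyl carrier protein (1.88-fold, log2 fold change -0.91 ± 0.25, adjusted p = 0.0258). Each of these 2 lost its call in 4 of the 10 fits that left out a library, with adjusted p up to 0.0749 and 0.0766.

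No core subunit passed the test, and ndufs1, the largest of the iron-sulfur subunits, had the widest log2 fold change of them (2.53 ± 1.14, adjusted p = 0.164). It read 39.0, 31.0, 50.2, 37.6 and 46.7 CPM in positive and 1.97, 0.220, 18.9, 38.2 and 3.23 CPM in negative libraries, and negative replicate 4 lay within the positive range. The level of ndufv1, the flavin-bearing subunit that oxidises NADH, was 111, 139, 116, 122 and 126 CPM in positive and 1.13, 37.6, 51.5, 42.9 and 59.1 CPM in negative libraries. The groups did not overlap, but negative replicate 1 lay far under the others (log2 fold change 1.81 ± 0.71, adjusted p = 0.107). Without that library ndufv1 was higher in AMCA-positive cells (log2 fold change 1.38, adjusted p = 0.0095). It was called in 1 of the 10 fits that left out 1 library. For ndufs7, which carries the iron-sulfur cluster next to ubiquinone, the values were 144, 219, 134, 133 and 118 CPM and 127, 380.2, 328, 325 and 226 CPM. Negative replicate 1 alone lay within the positive range (log2 fold change -0.91 ± 0.34, adjusted p = 0.0908), and without it ndufs7 was lower in AMCA-positive cells (log2 fold change -1.16, adjusted p = 0.0093). That was likewise the 1 call in 10 such fits. For both genes the library was singled out by its values, so these 2 p-values are no separate support. The subunit gene ndufa12 and the gene of its assembly paralog ndufaf2 had log2 fold changes of -0.01 ± 0.40 and -0.62 ± 1.14 (adjusted p = 0.990 and 0.781).

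Complex II oxidises succinate and was represented by 5 subunit and 3 assembly genes. None of the 7 tested was called by edgeR (0 at an unadjusted p under 0.05) or by the DESeq2 Wald test, and limma-voom called 1 as higher. The median log2 fold change of the 4 tested subunits was 0.38. The iron-sulfur subunit gene sdhb was at 221 ± 53.2 CPM in positive and 165 ± 59.6 CPM in negative libraries (log2 fold change 0.41 ± 0.30, adjusted p = 0.410). The assembly factor gene sdhaf4 was not called either (log2 fold change -0.23 ± 0.42, adjusted p = 0.778). Of the paired genes for the membrane anchor subunit, sdhdb was measured in both groups (log2 fold change 0.35 ± 0.40, adjusted p = 0.627), while sdhda had 25 counts in 2 positive libraries and 12 in 1 negative library and was not tested. RefSeq lists the sdhda and sdhdb symbols as synonyms of each other, so which locus each row stands for is not certain.

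Complex III has 5 tested core genes with a median log2 fold change of 0.81 and 4 accessory genes with a median of -0.24, and none of the 9 was called by edgeR. An unadjusted p under 0.05 was found for 2 of the 9, against 2773 of all 9094 genes tested. The DESeq2 Wald test and limma-voom each called 1 of the 9 as higher. The core subunit gene uqcrc2b read 63.9, 108, 101, 102 and 104 CPM in positive and 0, 22.9, 0, 38.2 and 11.1 CPM in negative libraries. Positive and negative libraries did not overlap, and 2 of the 5 negative libraries had no count (log2 fold change 2.74 ± 1.28, adjusted p = 0.179). Its paralog uqcrc2a was at 44.2 ± 10.4 and 21.1 ± 12.7 CPM (log2 fold change 1.06 ± 0.66, adjusted p = 0.327). The summed level of the pair was 140.1 ± 24.7 CPM in positive and 35.6 ± 26.9 CPM in negative libraries, also without overlap. The cytochrome c1 gene cyc1 and the ubiquinone-binding protein gene uqcrb had log2 fold changes of 0.72 ± 0.51 and -0.84 ± 0.29 (adjusted p = 0.388 and 0.0711). The 1 called gene, uqcc2, is needed in mammals for the assembly of cytochrome b. It read 80.5, 111, 50.8, 57.5 and 83.1 CPM in positive and 328, 153, 245, 176 and 70.0 CPM in negative libraries. Only negative replicate 5 lay within the positive range (log2 fold change -1.35 ± 0.39, adjusted p = 0.0335), and the call was lost in 6 of the 10 fits without 1 library (adjusted p up to 0.0847).

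Cytochrome c, the soluble carrier between complexes III and IV, was represented by cycsb alone. Its level was 701, 1104, 590.5, 620.2 and 596 CPM in positive and 706, 505, 188, 479.8 and 189.9 CPM in negative libraries. The groups overlapped through negative replicate 1 (log2 fold change 0.87 ± 0.30, adjusted p = 0.0700). With DESeq2 size factors, with upper-quartile scaling or without negative replicate 4 it was higher in AMCA-positive cells (adjusted p = 0.0339, 0.0330 and 0.0365). Of the 10 fits that left out 1 library, only 1 called cycsb.

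The widest called differences lay in complex IV. For subunit VIa both paralogs were called, in opposite directions. All 19 subunit genes were tested. AMCA-positive cells had 2 (10.5%) of them higher and 5 (26.3%) lower, against 13.1% and 7.06% of all genes. Their median log2 fold change was 0.60. The level of cox6a2 was 25.2, 34.7, 42.0, 62.4 and 52.8 CPM in positive replicates 1 to 5 and 332, 330.2, 388, 252 and 267 CPM in negative replicates 1 to 5. That of its paralog cox6a1 was 421, 927, 334, 429 and 360.5 CPM and 68.5, 273, 109, 119 and 106 CPM. Neither gene's groups overlapped, and they were ordered in opposite ways. cox6a2 was 7.48-fold higher in negative cells (log2 fold change -2.90 ± 0.32, adjusted p = 1.15e-04, edgeR) and cox6a1 3.59-fold higher in positive cells (log2 fold change 1.84 ± 0.37, adjusted p = 0.00490). Both encode subunit VIa, which lies where 2 oxidase monomers meet. The deposited table pairs zebrafish cox6a1 with mouse Cox6a2 and zebrafish cox8b with mouse Cox8a, and gives no mouse name for cox8a. The symbols therefore give no assured orthology to the mammalian isoforms.

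The gene cox5b2 encodes a form of subunit Vb, a zinc-binding subunit on the matrix side, and no other cox5b gene is among the 104. Its level was 10.4, 6.17, 11.5, 10.3 and 18.8 CPM in positive and 203, 165, 251, 96.2 and 120.1 CPM in negative libraries. The highest positive value lay well under the lowest negative one, and the 14.9-fold difference (log2 fold change -3.90 ± 0.46, adjusted p = 2.23e-04) was the largest among the called genes. For cox7a1, a subunit VIIa gene, the values were 2.13, 19.3, 14.5, 19.7 and 28.9 CPM and 162, 107, 201, 110.2 and 79.5 CPM. These did not overlap either (8.17-fold higher in negative cells, log2 fold change -3.03 ± 0.63, adjusted p = 0.00553). Its paralogs cox7a3, listed in RefSeq as cox7a2l, and cox7a2a were not called (log2 fold change 0.75 ± 0.29, adjusted p = 0.101, and log2 fold change -0.48 ± 0.40, adjusted p = 0.477). No cox7a3 value of a positive library fell within the negative range, where the means were 285 ± 111 and 164 ± 35.0 CPM.

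The subunit VIII gene cox8b read 14.5, 27.7, 22.2, 21.4 and 16.7 CPM in positive and 92.1, 179, 106, 58.8 and 27.2 CPM in negative libraries. Negative replicate 5 lay just under the highest positive value (4.21-fold higher in negative cells, log2 fold change -2.08 ± 0.53, adjusted p = 0.0174), and without positive replicate 1 the call was lost (adjusted p = 0.0533). Its paralog cox8a was at 161, 229.6, 114, 165 and 121 CPM and 82.3, 106, 24.3, 105 and 40.4 CPM. All positive values of cox8a lay above the negative ones, but the test was not passed (log2 fold change 1.16 ± 0.41, adjusted p = 0.0731). With DESeq2 size factors, with upper-quartile scaling or without negative replicate 4, cox8a was higher in AMCA-positive cells (adjusted p = 0.0385, 0.0469 and 0.0208). Of the 10 fits that left out 1 library, only 1 called cox8a.

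Subunit IV is the largest nuclear-encoded subunit of the complex. Its gene cox4i2 read 162, 190.1, 58.8, 103 and 107 CPM in positive and 393, 280.1, 296, 143 and 166 CPM in negative libraries. Negative replicates 4 and 5 lay inside the positive range (2.11-fold higher in negative cells, log2 fold change -1.08 ± 0.31, adjusted p = 0.0289). The call was lost in 5 of the 10 fits without 1 library, with adjusted p up to 0.0738. Its paralog cox4i1 was at 259 ± 82.9 CPM in positive and 159 ± 49.3 CPM in negative libraries and was not called (log2 fold change 0.69 ± 0.32, adjusted p = 0.172). The gene of subunit VIc, cox6c, read 158, 285, 95.8, 105 and 107 CPM and 156, 105, 44.1, 52.7 and 30.1 CPM. Its groups overlapped widely (2.1-fold higher in positive cells, log2 fold change 1.07 ± 0.33, adjusted p = 0.0395), and the call was lost in 8 of the 10 fits without 1 library, with adjusted p up to 0.131 without positive replicate 2.

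**Figure D3:**
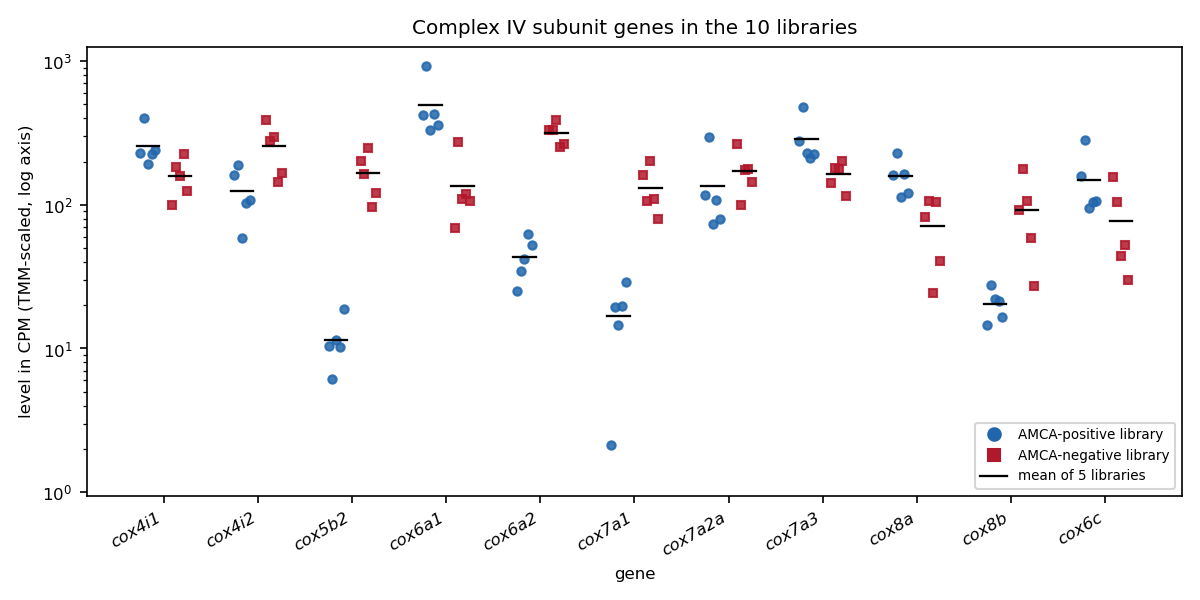
Level of complex IV subunit genes (vertical axis, TMM-scaled CPM, log scale) in the 5 AMCA-positive and 5 AMCA-negative libraries, 1 point per library. Positive and negative points do not overlap for cox5b2, cox6a2, cox7a1 and cox6a1, while those of cox8b, cox4i2 and cox6c do. The points of cox7a3 and cox8a are also apart, though edgeR called neither gene.

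The share of each paralog in the summed counts of its family shows the same genes without any scaling between libraries. It is a share of counts, not of molecules, because transcript length was not taken into account. The share of cox6a2 in cox6a counts was 5.64, 3.60, 11.2, 12.7 and 12.8% in positive replicates 1 to 5 and 82.9, 54.8, 78.0, 68.0 and 71.7% in negative ones. Thus cox6a1 held most counts of the family in all 5 positive libraries and cox6a2 in all 5 negative ones. The share of cox8b in cox8 counts was 8.25, 10.8, 16.3, 11.4 and 12.2% and 52.8, 62.7, 81.4, 36.0 and 40.3% in the same order. These groups did not overlap, with negative replicate 3 the highest and negative replicate 4 the lowest of its group. cox7a1 held 4.39 ± 3.11% of cox7a counts in positive and 27.7 ± 5.51% in negative libraries, and cox7a3 66.5 ± 5.06% and 35.8 ± 8.34% (SD, n = 5). Both were without overlap between the groups, whereas the share of cox7a2a (29.1 ± 5.85% and 36.5 ± 8.29%) overlapped. cox4i2 took 31.8 ± 6.45% of cox4i counts in positive and 60.2 ± 14.7% in negative libraries, with overlap. The summed levels of these 4 families overlapped in the groups: 383 ± 128 and 414 ± 83.4 CPM for cox4i, 538 ± 241 and 449 ± 100.2 CPM for cox6a, 437 ± 202 and 467 ± 101 CPM for cox7a, and 179 ± 49.4 and 164 ± 79.3 CPM for cox8.

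**Figure D4:**
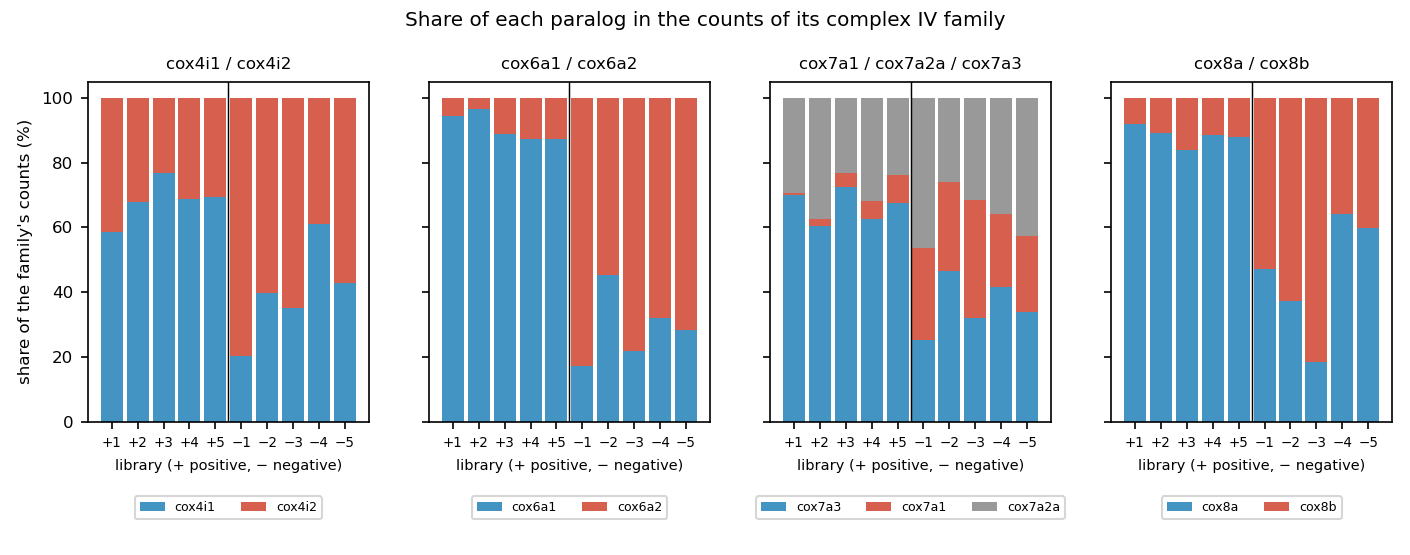
Share of each paralog in the counts of its complex IV family (vertical axis, percent) in each library, with the 5 AMCA-positive libraries left of the line and the 5 AMCA-negative libraries right of it. cox6a2, cox7a1 and cox8b take larger shares in every negative library than in any positive one, while the cox4i2 shares overlap.

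The negative libraries that hold these paralogs also hold the red cell markers, whose shares were 14.9, 12.6, 23.8, 12.5 and 14.7% of counts in negative replicates 1 to 5. Negative replicate 3 had the highest red cell share and the highest TMM-scaled negative values of cox5b2, cox6a2 and cox7a1. On that scale cox8b was highest in negative replicate 2 and cox4i2 in negative replicate 1. The scaling factor of negative replicate 3 was the lowest of all libraries (0.674), which raises its CPM values relative to its raw counts. As an unscaled share of its family, cox6a2 was highest in negative replicate 1 (82.9%) and cox7a1 in negative replicate 3 (36.4%). The part of red cell RNA in these differences was not tested. Without negative replicates 1 and 3 together, a setting chosen after the data were seen, 4 of the 5 lower complex IV genes were still called and cox4i2 was not. The negative libraries left still held 12.6, 12.5 and 14.7% red cell counts, so this setting cannot address the part of red cell RNA.

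In the remaining paralog families of complex IV edgeR called no gene, while the DESeq2 Wald test called cox5aa (adjusted p = 0.0322) and ndufa4 (0.0441) as higher. Those for subunit Va, cox5aa and cox5ab, had log2 fold changes of 0.67 ± 0.28 and 0.92 ± 0.92 (adjusted p = 0.131 and 0.569), and cox5ab held 24.0 ± 3.37% of their counts in positive and 20.9 ± 14.0% in negative libraries. For subunit VIb, cox6b1 and cox6b2 had log2 fold changes of 0.62 ± 1.07 and 0.41 ± 0.27 (adjusted p = 0.761 and 0.359). The gene ndufa4, named for complex I but in mammals a subunit of complex IV, read 16.6, 331, 54.8, 38.7 and 39.6 CPM in positive and 2.54, 3.74, 0, 31.6 and 24.6 CPM in negative libraries. Positive replicate 2 was far above all the others (log2 fold change 2.85 ± 1.52, adjusted p = 0.244). Its paralog ndufa4l was at 341 ± 140.3 and 379 ± 38.1 CPM (log2 fold change -0.21 ± 0.24, adjusted p = 0.619). The subunit VIIb gene cox7b was at 708 ± 480.2 CPM in positive and 439 ± 189.7 CPM in negative libraries (log2 fold change 0.60 ± 0.32, adjusted p = 0.250).

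ATP synthase consists of the F1 head, which makes ATP, and the membrane part and stalks, which hold and turn it. Of its 16 tested genes edgeR called 3 as higher in AMCA-positive cells and none as lower, against 13.1% and 7.06% of all genes, and the median log2 fold change was 0.13. The gene of the catalytic β subunit, atp5b (atp5f1b in RefSeq), read 465, 591, 679, 638 and 404 CPM in positive and 304, 342, 142, 167 and 342 CPM in negative libraries. All positive values lay above all negative ones (2.18-fold, log2 fold change 1.13 ± 0.31, adjusted p = 0.0238). The call was lost without positive replicate 3 (adjusted p = 0.0585) or 4 (0.0597), and without negative replicate 3 (0.0604) or 4 (0.0719). Its call was also lost with limma-voom (0.0511). Of the other 4 F1 genes edgeR called none, and the DESeq2 Wald test called 1 as higher.

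The c subunit, of which several copies form the rotating ring, is encoded by atp5g1, atp5g3a and atp5g3b. The level of atp5g1 was 333, 705, 218, 319 and 253 CPM in positive and 115, 89.7, 136, 172 and 155 CPM in negative libraries. That of atp5g3a was 266, 340.4, 206, 229.6 and 229 CPM and 176, 69.5, 58.6, 147 and 107 CPM. Neither gene's groups overlapped, and both were higher in positive cells (2.62-fold, log2 fold change 1.39 ± 0.37, adjusted p = 0.0213, and 2.25-fold, log2 fold change 1.17 ± 0.34, adjusted p = 0.0329). For atp5g1 the log2 fold change was 2.13 on plate 1 and 0.78 on plate 2. Its call was lost without negative replicate 1 (adjusted p = 0.0573) or 2 (0.0504), and that of atp5g3a in 7 of the 10 fits without 1 library (up to 0.0803). The remaining gene, atp5g3b, was not called (log2 fold change 0.50 ± 0.32, adjusted p = 0.332). The 3 genes encode very similar proteins, so reads may have been split between them, and their summed level was 1353 ± 414 CPM in positive and 759 ± 246 CPM in negative libraries, with overlap. atp5g1 made up 25.8 ± 5.11% of that sum in positive and 18.9 ± 7.06% in negative libraries.

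**Figure D5:**
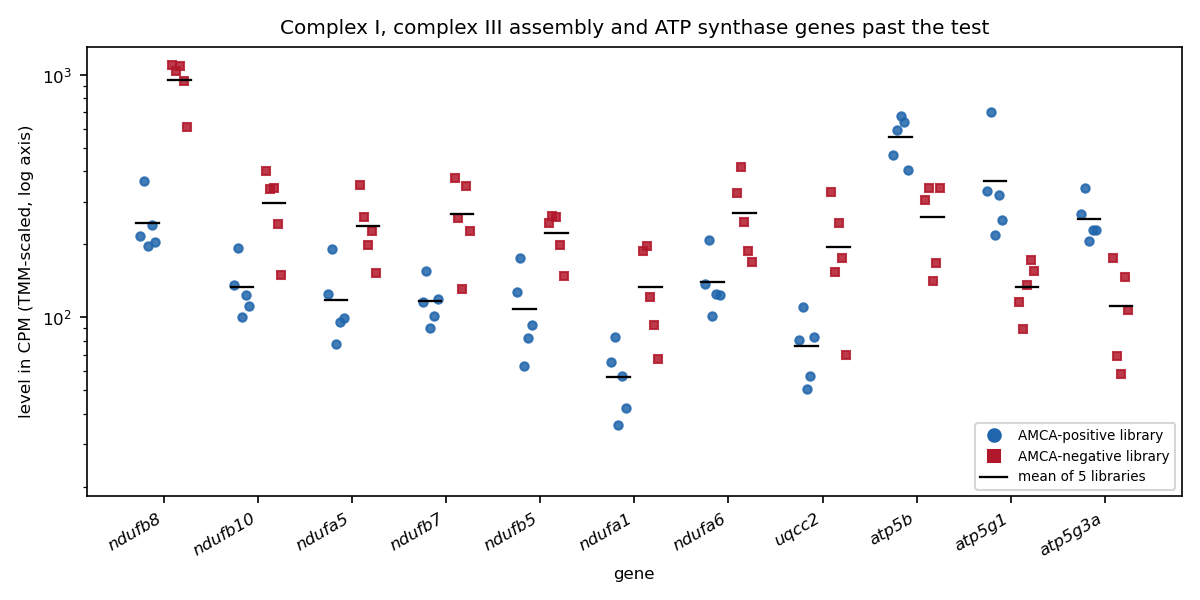
Level of the called complex I, complex III assembly and ATP synthase genes (vertical axis, TMM-scaled CPM, log scale) in the 5 AMCA-positive and 5 AMCA-negative libraries, 1 point per library. The groups are apart for ndufb8, atp5b, atp5g1 and atp5g3a and overlap for the other complex I genes and uqcc2.

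The genes of assembly factors, which help build the complexes and are not part of them, were unevenly sampled in the negative libraries. Of 18 listed, 16 were tested. Among these edgeR called none as higher and 1 (6.25%), uqcc2, as lower, against 13.1% and 7.06% of all genes. In complex I assembly the DESeq2 Wald test and limma-voom each called 1 gene as higher, and in complex II assembly limma-voom called 1. Their median coefficient of variation was 27.9% in positive and 88.6% in negative libraries, against 34.4% and 39.9% for the other 83 tested genes. Over all genes tested this median was 37.8% and 105.5%. In negative libraries the assembly factors thus lay nearer to that background than the other 83 genes did. In 12 of the 16 at least 1 negative library lay under 3 CPM, against 7 of the other 83, and the share over all genes is not given. The copper chaperone gene cox17 (log2 fold change -0.72 ± 0.25, adjusted p = 0.0692) and cox14 (log2 fold change -0.75 ± 0.51, adjusted p = 0.368) were not called, although every cox14 value of a positive library lay under every negative one. atp5s, now dmac2l in RefSeq, was not called either (log2 fold change -1.76 ± 0.70, adjusted p = 0.113, edgeR), but was lower with the DESeq2 Wald test (adjusted p = 0.0476), and lower in AMCA-positive cells without negative replicate 1 (log2 fold change -2.14, adjusted p = 0.0093). Of the 10 fits that left out 1 library, only 1 called atp5s.

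The filter left out 5 genes. No count was found in any library for the accessory subunit gene ndufa13 and the assembly factor gene ndufaf3. The core subunit gene ndufs8b had 7 counts in 1 positive library and none in the negative ones, and sdhda is described above. The assembly factor gene ndufaf7 had 158 counts over the 5 positive libraries (1.83, 4.17, 1.63, 10.8 and 6.36 CPM in replicates 1 to 5) and none in the negative group. It was at least 36.8-fold higher in positive cells when a floor of 3 counts over the negative group is used. That floor covers counting error only. In the authors' deposited table its log2 fold change is 6.62 ± 1.24 (SE).

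Other mitochondrial genes gave a background to these results. A list of 20 tested genes covered the tricarboxylic acid cycle and pyruvate oxidation, which feed NADH to complex I. It also held the cytosolic malate dehydrogenase gene mdh1aa and its paralog mdh1ab. Of the 20, edgeR called 4 (20%) as higher in AMCA-positive cells and none as lower, against 13.1% and 7.06% of all genes. The median log2 fold change was 1.07, against 0.51 for all genes. With the filter at 10 CPM in 5 libraries the all-gene median was 0.13, and no median of this list is given there. The 4 called genes were mdh1aa (log2 fold change 1.81 ± 0.44, adjusted p = 0.0134), dlat, the acetyltransferase of the pyruvate dehydrogenase complex (log2 fold change 6.36 ± 1.63, 446 counts in positive and 6 in negative libraries), idh3a and mdh2. The negative counts of dlat came from 1 library, so it passed the filter through the positive libraries alone. Its test could therefore only come out as higher, and it is 1 of the 4 called. The groups of mdh2 overlapped (log2 fold change 1.33 ± 0.43, adjusted p = 0.0499, edgeR). Those of idh3a did not (log2 fold change 1.26 ± 0.36, adjusted p = 0.0284, edgeR). Of 15 genes that pass electrons to ubiquinone by other routes or make ubiquinone, none was called by edgeR (median log2 fold change 1.14). In that list 4 had an unadjusted p under 0.05, against 2773 of all 9094 genes tested. The DESeq2 Wald test called 4 of the list and limma-voom 6 as higher. Of 22 tested assembly factors with names outside the rule, 1 (4.55%) was higher and 4 (18.2%) were lower, against 13.1% and 7.06% of all genes. bcs1l, which inserts the iron-sulfur protein into complex III, had 268 counts in positive and none in negative libraries, at least 62.4-fold higher by the same floor of 3 counts. It passed the filter through the positive libraries alone, so its test could only come out as higher. Absence and poor sampling in the negative libraries cannot be told apart here. Lower were higd1a (1591 ± 517 and 3494 ± 867 CPM, log2 fold change -1.18 ± 0.22, adjusted p = 0.00312), a small membrane protein linked in mammals to complex IV, pet100, a complex IV assembly factor (log2 fold change -1.88 ± 0.38, adjusted p = 0.00496), higd2a and lyrm2. The ATP synthase inhibitor genes atpif1a and atpif1b were not called by edgeR (log2 fold change 0.74 ± 0.31, adjusted p = 0.127, and log2 fold change -0.30 ± 0.28, adjusted p = 0.540), and the DESeq2 Wald test called atpif1a as higher (adjusted p = 0.00142).

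Of 9 tested regulators of mitochondrial gene expression, edgeR called 2 (22.2%) as lower in AMCA-positive cells and none as higher, against 7.06% and 13.1% of all genes. The DESeq2 Wald test called 2 as higher and 2 as lower, and limma-voom 1 as higher and 2 as lower. The level of tfam, which packages mitochondrial DNA and starts its transcription, was 41.5, 46.8, 41.1, 72.2 and 58.5 CPM in positive and 122, 155, 208, 186 and 159 CPM in negative libraries. No positive value reached a negative one (3.19-fold higher in negative cells, log2 fold change -1.67 ± 0.30, adjusted p = 0.00277). The transcription factor gene yy1a was also lower (log2 fold change -1.31 ± 0.32, adjusted p = 0.0131). nrf1 and gabpa, both transcription factors known for respiratory chain genes, were not called (log2 fold change -1.21 ± 0.53, adjusted p = 0.152, and log2 fold change -1.61 ± 1.03, adjusted p = 0.342), and esrra, with 111 counts in positive and 5 in negative libraries, was not tested.

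Both plates held both groups, and all 18 called genes had the same sign on each plate as in the joint test. The joint test used these same libraries, so this sign too is no separate support. On plate 1 and plate 2 the log2 fold change was -4.70 and -3.52 for cox5b2, -3.67 and -2.52 for cox6a2, -3.84 and -2.62 for cox7a1, and 1.85 and 1.76 for cox6a1. The interaction of plate and group, which asks whether a difference changed between plates, was past the adjusted threshold in 0 of the 99 genes (edgeR, the 1 tool run for it) and 0% of all genes, and 5 of the 99 had an unadjusted p under 0.05. The all-gene share at that unadjusted p is not given.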

How the data were processed

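RNA from sorted zebrafish pituitary cells was amplified as full-length cDNA with 15 PCR cycles, per the labels' protocols, and sequenced in 10 libraries. The build danRer10 and the tools HTSeq, DESeq2, TopHat2 2.0.13 and cutadapt stand, without their roles, in the submitters' processing notes. Annotation and strand setting: not given in the sources used here, so reads of overlapping genes cannot be told apart. The authors deposited 1 table with raw counts per gene, with normalized counts (a signal: counts divided by 1 size factor per library) and with their own log2 fold change, its SE, test score, p-value and adjusted p-value. PCR duplicates were not marked by molecular identifiers, as far as the sources say.

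The quasi-likelihood F test of edgeR 4.0.16 (R 4.3.3, limma 3.58.1) was run on the raw counts: TMM scaling, filterByExpr by group, robust fit, two-sided, with plate and group in the model, and Benjamini-Hochberg adjustment over 9094 genes at 0.05. CPM values are TMM-scaled. The SE of an edgeR log2 fold change was taken as its absolute value divided by the square root of the F statistic. The code was tested on simulated data. Alternatives used DESeq2 1.42.0 and limma-voom, other scalings and filters, single plates and each library left out. Replicates are numbered in sample order. The labels do not say which positive and negative libraries share a pool, and the main test did not model pools.

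The genes, lists and tests were chosen with earlier results of these data known. Named were, per class, up to 3 called genes in each direction and the one with the highest CPM, all paralogs, untested genes, and up to 2 called genes per related list and direction. Further called genes and those without overlap between groups were added after their values were seen. Promoter motifs were not analysed here.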

Additional observations from a re-analysis of the deposited data

Results flagged for a closer look

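Of 116 groups of 5 libraries checked, 25 had 1 library whose gap to the nearest other exceeded Dixon's critical value, where chance gives about 1 in 20. In 19 of the 25 the library was positive replicate 2, always as the highest. There the level was 219 CPM against 144 CPM in the next positive library for ndufs7, 365 CPM against 239 for ndufb8 and 1104 CPM against 701 for cycsb. Among complex IV genes it was 403 CPM against 241 CPM in the next positive library for cox4i1, 527 CPM against 298 for cox5aa, 164 CPM against 102 for cox5ab, 927 CPM against 429 for cox6a1, 297 CPM against 126 for cox6b1 and 614 CPM against 356 for cox6b2. The same library was at 296 CPM against 117 CPM in the next positive library for cox7a2a, 479 CPM against 279 for cox7a3, 1551 CPM against 639 for cox7b, 331 CPM against 54.8 for ndufa4 and 584 CPM against 335 for ndufa4l. For the c-ring genes it was at 705 CPM against 333 CPM in the next positive library for atp5g1 and 1031 CPM against 693 for atp5g3b. All 104 genes together took 2.88% of its counts against 1.81% in the next positive library, complex IV 0.931% against 0.494%, and ATP synthase 0.810% against 0.556%. Without this library cox6a1, ndufb8, cox6a2, cox5b2 and cox7a1 were still called.

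The other 6 were single values. In negative replicate 2, cox6a1 was at 273 CPM against 119 CPM in the next library, and in negative replicate 3, cox14 was at 61.8 CPM against 44.2 CPM. In negative replicate 5, atp5ib was lowest at 175 CPM against 292 CPM, and in positive replicate 1, uqcrc2b was lowest at 63.9 CPM against 101 CPM. sdhda in negative replicate 4 (2.27 CPM) and ndufs8b in positive replicate 4 (1.08 CPM) were the only libraries of their groups with a count.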

How the results depend on the processing

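The test called 5 genes higher and 13 lower in AMCA-positive cells. The number higher was 8 with DESeq2 size factors, 3 with the filter at 10 CPM in 5 libraries and 15 with the DESeq2 Wald test (14 lower). Over all genes tested in these settings the number higher was 1298, 676 and 2927. With neighbouring wells as a block 2 were higher and 6 lower, on plate 2 alone 3 and 7, and on plate 1 alone 0 and 0 (edgeR, the 1 tool run there, with 15 of 100 genes at an unadjusted p under 0.05 and 2 libraries per group). Over all genes these 3 settings gave 1253 and 440, 1411 and 492, and 29 and 34. For plate 1 alone the all-gene share at an unadjusted p under 0.05 is not given. Leaving out 1 library gave 3 to 7 higher (3 without positive replicate 3 or 4 or negative replicate 3) and 6 to 14 lower (6 without positive replicate 1, 8 without positive replicate 3). Called in every setting but plate 1 alone were ndufb8, cox6a1, cox6a2, cox5b2 and cox7a1. The labels do not say which libraries share a pool, so the wells pair libraries by position only.

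Among the named genes, signs turned only in genes that were not called. The log2 fold change of ndufa12 was 0.13 with DESeq2 size factors, 0.0561 with upper-quartile scaling, 0.12 with the DESeq2 Wald test, 0.0948 with limma-voom, 0.0159 without the plate term, 0.0491 with the well block, 0.74 on plate 1, and -0.25 to 0.18 over the fits without 1 library. That of ndufaf1 was -0.13 with the 10 CPM filter, -0.10 without the plate term, -0.61 on plate 2, -0.57 without negative replicates 1 and 3, and -0.43 to 0.74 without 1 library. Further values were 1.13 for ndufaf2 on plate 1, -0.20 on plate 2 and -0.0317 without negative replicates 1 and 3 for cox6b1, -0.17 for sdhdb on plate 2, and 0.72 without negative replicates 1 and 3 and -2.00 to 0.12 without 1 library for gabpa. Filtering by the design tested 10468 genes and called 6 higher and 13 lower, against 1693 and 687 of all genes. That filter and the joint removal of negative replicates 1 and 3 (7 higher, 15 lower, against 1638 and 785 of all 10333 genes) were chosen after seeing the data. The cause of these changes was not tested. Of the 16 assembly factors tested, 12 had a negative library under 3 CPM, and the share over all genes is not given.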

Other observations

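Of 13 tested genes of oxygen defence and uncoupling, 1 was higher in AMCA-positive cells, 4 were lower and 8 were not called by edgeR (13.1% higher and 7.06% lower among all genes). The list is not limited to mitochondrial enzymes. Among the 8 were sod2 and prdx3 (adjusted p = 0.458 and 0.650, edgeR). The level of ucp3, an uncoupling protein of the inner membrane known in mammals mainly from muscle, was 0.152, 0.167, 0.444, 1.84 and 1.43 CPM in positive and 229, 216, 652, 309 and 330.1 CPM in negative libraries. Every negative library lay far above every positive one (log2 fold change -8.96 ± 0.62, adjusted p = 5.54e-06, edgeR, with 26 counts in positive and 7722 in negative libraries). The glutathione peroxidase gene gpx1a was also lower in AMCA-positive cells (956 ± 429 and 13161 ± 3813 CPM, log2 fold change -3.81 ± 0.32, adjusted p = 2.06e-05), as were sod1 and glrx5. The peroxiredoxin gene prdx5 was higher (586 ± 184 and 122 ± 43.9 CPM, log2 fold change 2.27 ± 0.33, adjusted p = 9.11e-04). ucp2 was at 1057 ± 604 and 1075 ± 219 CPM and was not called.

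Of 20 tested genes of the cristae and the outer membrane, 1 (5%) was higher and 2 (10%) were lower in AMCA-positive cells, against 13.1% and 7.06% of all genes. The outer membrane protein gene tspo read 134, 170.0, 139, 195 and 127 CPM in positive and 2784, 2119, 3599, 1676 and 2098 CPM in negative libraries. The groups did not overlap (16.0-fold higher in negative cells, log2 fold change -4.00 ± 0.27, adjusted p = 4.46e-06). chchd6a, a gene of the complex that shapes cristae junctions, was lower (log2 fold change -2.48 ± 0.49, adjusted p = 0.00455), and vdac3, an outer membrane channel, was higher (log2 fold change 1.87 ± 0.47, adjusted p = 0.0169). The red cell marker shares were 12.5 to 23.8% in negative and at most 0.0880% in positive libraries, and their part in these differences was not tested.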
